A study of Mus musculus with 12 samples.

Results

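The mitochondrial genome is a small circular DNA that is copied into long transcripts from both strands. These are cut into messenger RNAs (mRNAs) for core subunits of the respiratory chain, transfer RNAs, and the 2 ribosomal RNAs (rRNAs) of the mitochondrial ribosome. All proteins that make, cut and stabilise these RNAs come from nuclear genes, as do the partner subunits of each complex. Hematopoietic stem cells, which sustain all blood lineages, are known for resting largely on glycolysis while holding mitochondria in reserve.

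The genes described here were chosen by name: ND1, ND2, ND3, ND4 and ND5 of complex I, COX1 and COX3 of complex IV, CYTB of complex III, and the rRNA genes mt-Rnr1 (12S) and mt-Rnr2 (16S). They are 10 of the 27179 genes in the deposited count table. A mean raw count of at least 10 was asked for, which 9 reached. COX3 was under it, and all 9 passed the filter on low counts that left 14473 genes for testing. Of 37 genes that RefSeq places on the mitochondrial chromosome, the table listed 15, and none of the 22 transfer RNA genes. No measured value chose the members, but they were chosen with earlier results of these data known.

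Total RNA was sequenced from sorted hematopoietic stem cells of 12 C57BL/6J mice, 3 for each of 4 genotypes, with 1 library per mouse. Group WT (libraries WT2, WT3 and WT4) was wild-type, and group E (E1, E2 and E3) carried the Emu-myc transgene. Group C (C1, C2 and C3) was Casp1 -/- Casp11 -/-, the joint loss of the inflammatory caspases, and group CE (CE1, CE2 and CE3) combined Emu-myc with that loss. Emu-myc drives Myc from an immunoglobulin heavy chain enhancer, which is most active in the B lineage. The sources used here give neither the sex nor the age of the mice, nor whether RNA was selected by its poly(A) tail or depleted of ribosomal RNA.

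Libraries held 24529611 to 34065910 counts. Casp1 was at 29.8 to 47.8 CPM (counts scaled to a common effective library size) in the wild-type mice and at 5.10 to 6.39 in C. It passed the test of those groups (log2 -2.73, edgeR adjusted p = 9.15e-07). Casp4, the annotation's name for Casp11, did not pass there (log2 -0.54, adjusted p = 0.11), and Myc did not pass in E against WT (log2 0.03, adjusted p = 0.967). Of the labels, the counts thus checked the loss of Casp1 alone. All 14 stem cell markers listed for the label (Procr, Slamf1, Hlf and others) were tested, with a summed level of 983.5 to 1350 CPM over all libraries. Kit (363.9 to 508.1 CPM) and Gata2 (246.3 to 331.5) had the highest levels in this sum. Hlf was at 66.9 to 144.5 CPM, Procr at 8.28 to 18.4 and Slamf1 at 3.38 to 5.05, so that the sum says little of these markers. Genes of other blood cells were detected beside the stem cell markers, the highest being Mpo, a myeloid granule enzyme, at 5456 to 9054 CPM. Of the B-cell genes Cd79b had 1147 to 2060 counts a library and Ms4a1 0 to 21, and of the T and NK genes Nkg7 had 4051 to 6376 and Cd3e 0 to 6. C1 and C3 had the most genes detected, 22900 and 21247, against 17310 to 18863 in the other libraries. Y-linked transcripts summed to 91.4 to 121.5 CPM in 5 of the 6 caspase-null libraries and stayed under 0.3 in CE3 and every library of WT and E, so that their presence and the caspase genotype cannot be told apart outside CE3. Nothing in the labels says that mice were from separate litters or days, and p-values measure the spread between these mice.

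Which mitochondrial genes received counts followed their place on the molecule. The stretch from base 6390 to base 11042 of the mitochondrial chromosome (mm10) has a near-identical copy in the nuclear genome, annotated in GENCODE as 7 unprocessed pseudogenes on the minus strand of chromosome 1 (24611535 to 24616197). Over 4140 aligned bases the copies differ from the mitochondrial genes at 2 positions. Of the genes wholly inside the stretch, COX2 had 18 counts over all 12 libraries, ATP8 had 2, and ATP6, COX3 and ND4L had 9 each. ND3 had 618. Outside it, totals ran from 71553 for ND6 to 530304 for CYTB, and COX1, which lies partly inside, had 1615629. The annotated copies of COX2, ATP6, COX3 and ND4L have no mismatch, and that of ND3 has 1 in 345 bases. How reads that map to more than 1 place were counted is not given in the sources used here, and its part in these counts was not tested.

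The sequences below show the only 2 mismatches found, in ND3 and COX1, beside the start of COX3, whose copy has none. COX1 has most of its bases outside the stretch. Each is written 5′ to 3′ on the coding strand, from GENCODE transcripts on mm10, and the capital marks the base at which the mitochondrial gene and its copy differ. Positions in a substitution count from the first base of the gene, with the mitochondrial base first. ND3 and its copy Gm28438 differ by T3C, within the start codon (chrM:9459-9491, plus strand, and chr1:24613087-24613119, minus strand).
ND3: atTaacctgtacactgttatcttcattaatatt
Gm28438: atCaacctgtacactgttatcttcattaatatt
COX1 and its copy Gm29216 differ by A1066T, near the edge of the stretch (chrM:6390-6423, plus strand, and chr1:24616155-24616188, minus strand).
COX1: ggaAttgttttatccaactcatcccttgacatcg
Gm29216: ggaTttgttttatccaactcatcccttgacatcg
The first 60 bases of COX3 and of its copy Gm28437 are the same (chrM:8607-8666, plus strand, and chr1:24613912-24613971, minus strand).
COX3: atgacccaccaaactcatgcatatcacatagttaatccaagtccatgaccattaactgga

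COX3, which encodes a core subunit of cytochrome c oxidase, was at 0 counts in all C libraries, at 2, 0 and 0 in E1, E2 and E3, at 3, 0 and 0 in CE1, CE2 and CE3, and at 1, 2 and 1 in WT2, WT3 and WT4. Nothing further is drawn from it. The level of ND3 rests on 26 to 113 counts a library, so that it carries far more counting error than the other members, each of which had at least 3573 counts in every library.

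Levels of different genes were compared per kilobase of gene. COX1, the catalytic subunit of complex IV, had the highest median over the 12 libraries, at 2429 CPM per kilobase. CYTB, the mitochondrial subunit of complex III, followed at 1181, and ND1, a membrane-arm subunit of complex I, at 1012. The other complex I genes were lower, with ND2 at 397.8, ND5 at 328.7 and ND4 at 319.7 CPM per kilobase. The rRNAs had lower medians still, with mt-Rnr1 at 216.2 and mt-Rnr2 at 187.3, but ND5 lay above mt-Rnr1 in only 9 of 12 libraries. COX1 lay above CYTB, ND1 above ND2, and mt-Rnr1 above mt-Rnr2 in 12 of 12 libraries. CYTB lay above ND1 in 11 and ND5 above ND4 in 8 of 12, so that this last pair had no fixed order.

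The stretch bears on 2 of these levels. COX1 has 483 of its 1545 bases inside it and ND4, another membrane-arm subunit of complex I, 876 of 1378. Per kilobase of the bases outside, a length chosen after the data were seen, COX1 was at 3534 CPM and ND4 at 877.7. On that scale ND4 lay above ND2 and ND5 in all 12 libraries, where it lay below ND2 in all 12 on the whole gene. The order of ND4 among the complex I genes is therefore set by the length used.

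**Figure D1:**
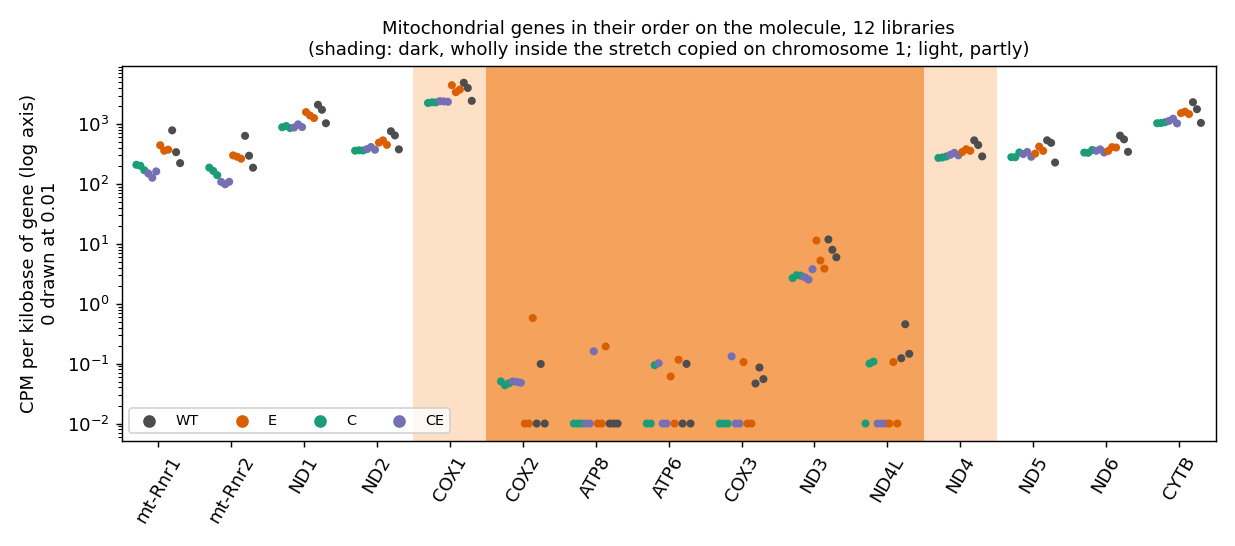
Level of the 15 mitochondrial genes in the table, in CPM per kilobase of gene (log axis, 0 drawn at 0.01), in their order on the molecule, with 1 point per library coloured by group. The genes wholly inside the copied stretch (dark shading) lie orders of magnitude under the others, with ND3 between, and COX1 and ND4 (light shading) lie partly inside.

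Levels differed widely among the wild-type mice. The 15 mitochondrial genes held 1.59, 1.34 and 0.734% of all counts in WT2, WT3 and WT4, and 1.16 to 1.25% in E. They held 0.743 to 0.769% in C and 0.734 to 0.837% in CE. WT2 was the highest of all libraries for 9 of 9 members, and WT4 was below the other WT libraries for 9 of 9. WT4 was also below every E library for 8 of the 9, yet above every C library for 6. In bulk samples fewer cells of a type and less RNA per cell cannot be told apart, and this holds for every level given here.

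Among the complex I members, ND1 was at 2009.9, 1659.6 and 989.2 CPM in WT2, WT3 and WT4, and at 1516, 1331 and 1207 in E1, E2 and E3. It was at 848.3, 887.8 and 820.5 CPM in C1, C2 and C3, and at 838.6, 947.1 and 853.1 in CE1, CE2 and CE3. All libraries with the caspase loss lay below all without it. ND2, also a membrane-arm subunit, was at 788.6, 671.3 and 393.1 CPM in WT2, WT3 and WT4 and ran from 467.0 to 555.0 over E. Its C libraries ran from 373.2 to 379.3 CPM and its CE libraries from 387.2 to 430.1, and WT4 lay within CE. ND4 ran from 375.2 to 397.3 CPM in C, 414.6 to 457.4 in CE and 471.0 to 525.0 in E, and these 3 groups did not overlap. In WT it ran from 398.1 to 736.9, across all of CE and E. ND5, the largest complex I subunit encoded in mitochondria, overlapped most. Its wild-type libraries ran from 416.0 to 977.5 CPM and those of E from 585.7 to 767.5. Those of C ran from 510.2 to 613.3 CPM and those of CE from 519.7 to 625.7, and its lowest library was WT4. ND3 was at 4.13, 2.77 and 2.08 CPM in WT2, WT3 and WT4 and at 3.96, 1.83 and 1.34 in E1, E2 and E3. It was at 0.933 to 1.04 in C and 0.883 to 1.31 in CE, so that every caspase-null library again lay below every other.

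CYTB was at 2656, 2028 and 1198 CPM in WT2, WT3 and WT4 and at 1746, 1845 and 1680 in E1, E2 and E3. It was at 1183, 1194 and 1231 in C1, C2 and C3 and at 1294, 1408 and 1175 in CE1, CE2 and CE3. E stood apart from both caspase-null groups, while WT4 lay inside the range of each. COX1 was at 7577, 6191 and 3776 CPM in WT2, WT3 and WT4 and at 6897, 5265 and 5827 in E1, E2 and E3. It was at 3477, 3565 and 3565 in C1, C2 and C3 and at 3730, 3697 and 3641 in CE1, CE2 and CE3. For COX1 WT4 lay just above the highest CE library, and E and WT overlapped.

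mt-Rnr1, the RNA of the small subunit of the mitochondrial ribosome, was at 750.8, 324.5 and 212.9 CPM in WT2, WT3 and WT4 and at 423.5, 343.2 and 357.2 in E1, E2 and E3. It was at 199.98, 192.7 and 162.1 in C1, C2 and C3 and at 143.3, 121.4 and 154.9 in CE1, CE2 and CE3. The 3 groups E, C and CE did not overlap, in that order from high to low. mt-Rnr2, the RNA of the large subunit, was at 1007, 468.8 and 295.9 CPM in WT2, WT3 and WT4 and at 474.8, 451.4 and 417.97 in E1, E2 and E3. It was at 296.7, 261.6 and 221.9 in C1, C2 and C3 and at 171.4, 156.2 and 172.0 in CE1, CE2 and CE3. The order was the same, with WT4 level with C1. Whether RNA was selected by its poly(A) tail or depleted of rRNA is not given. Its part in the rRNA counts was not tested, here or in any rRNA result below.

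**Figure D2:**
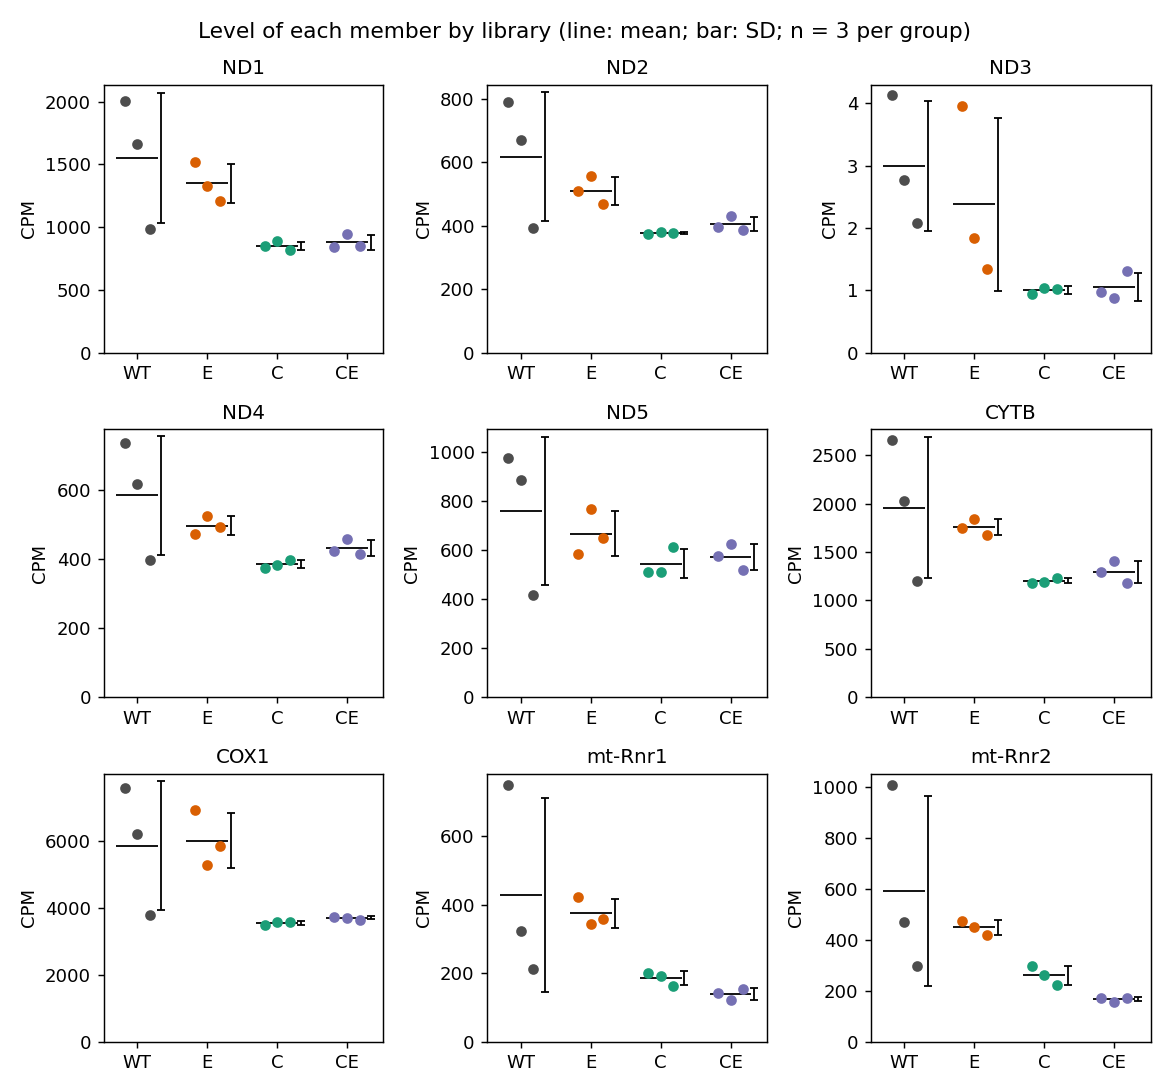
CPM of each of the 9 members by group, with 1 point per library, the mean as a line and the SD as a bar (n = 3). Points of C and CE sit low and close together, WT spreads from the highest library (WT2) down to the level of C (WT4), and CE is below C for the rRNAs.

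Loss of the caspases without the transgene was asked by C against WT. All 9 members stood below WT (51.8% of all genes did), with a median log2 of -0.73 against -0.01 over all genes tested. None passed at an edgeR adjusted p under 0.05, where 0.656% of all genes did (0.297% as lower). At an unadjusted p under 0.05 there were 8 of the 9 (23.2% of all genes), and the groups did not overlap for 6 (13.9% of all genes, lower). ND3 was at log2 -1.58 (SE 0.37, adjusted p = 0.0525), mt-Rnr1 at -1.22 (SE 0.31, adjusted p = 0.0579) and mt-Rnr2 at -1.18 (SE 0.29, adjusted p = 0.0572). ND1 was at log2 -0.87 (SE 0.19, adjusted p = 0.05005), COX1 at -0.73 (SE 0.19, adjusted p = 0.0604) and CYTB at -0.71 (SE 0.20, adjusted p = 0.0689). ND2 (log2 -0.72, SE 0.18), ND4 (-0.60, SE 0.16) and ND5 (-0.48, SE 0.23) had adjusted p = 0.0577, 0.0645 and 0.217. The members thus lay just over the threshold, apart from ND5.

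The count in C against WT was set by the libraries and the tool. Without WT4 all 9 members passed (all genes called: 2258 of 14891), with a median log2 of -0.95, and without WT3 4 did (781 of 14872). With each of the other 4 libraries left out in turn, none did (7 to 9 of all genes). DESeq2 called 8 of the 9 and limma voom with quality weights all 9, beside 1255 and 1773 genes in all. With a covariate for Y-linked transcripts none passed (edgeR adjusted p = 0.493 to 0.57), at a median log2 of -0.91, and of all 14473 genes 1 was called. Only CE held libraries both with and without such transcripts, so that this fit can hardly tell them from the caspase loss.

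The same loss in the presence of the transgene was asked by CE against E. Both rRNAs fell. mt-Rnr1 fell 2.68-fold, from 374.6 ± 42.9 CPM in E to 139.9 ± 17.02 CPM in CE (SD over 3 libraries a group). That is log2 -1.42 (SE 0.31, edgeR adjusted p = 0.0403). mt-Rnr2 fell 2.69-fold, from 448.0 ± 28.6 to 166.6 ± 8.98 CPM (SD over 3 libraries a group), or log2 -1.43 (SE 0.30, edgeR adjusted p = 0.0398). They were 2 of 9 members past the threshold, where 1.58% of all genes passed and 1.11% as lower. The mRNAs did not pass. COX1 was at log2 -0.70 (SE 0.19, adjusted p = 0.0651), ND1 at -0.62 (SE 0.19, adjusted p = 0.0825) and ND3 at -1.16 (SE 0.37, adjusted p = 0.0955). CYTB (log2 -0.44), ND2 (-0.34), ND5 (-0.22) and ND4 (-0.20) had adjusted p = 0.199 to 0.596. All these SE and p come from the fit of 12 libraries, whose spread includes WT and C. With only E and CE fitted, mt-Rnr1 had SE 0.118 (edgeR adjusted p = 0.000157) and mt-Rnr2 SE 0.0979 (edgeR adjusted p = 3.35e-05). In that fit 5 of 9 members and 843 of 13899 genes were called.

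All 9 members stood below E in CE (49.6% of all genes did), with a median log2 of -0.62 against 0.0026 over all genes. At an unadjusted p under 0.05 there were 6 of the 9 (22.6% of all genes), and the groups did not overlap for 8 (15.1% of all genes, lower). Both rRNA calls ended when any 1 of the 6 libraries of E and CE was left out, where 2 to 32 of all genes were called, against 229 with every library. The log2 then ran from -1.50 to -1.33 for mt-Rnr1 and from -1.48 to -1.39 for mt-Rnr2. For mt-Rnr1 the edgeR adjusted p was then 0.0705 (without E3) to 0.197 (without E1), and for mt-Rnr2 0.067 (without E3) to 0.19 (without E1). Both calls ended too with the covariate for Y-linked transcripts (adjusted p = 0.162 and 0.143), where 2 of all 14473 genes were called. CE3, the CE library without such transcripts, was at 154.9 and 172.0 CPM for mt-Rnr1 and mt-Rnr2. These levels were below every E library but the highest within CE. Nothing further is drawn from this 1 library. C against WT and CE against E share no library.

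**Figure D3:**
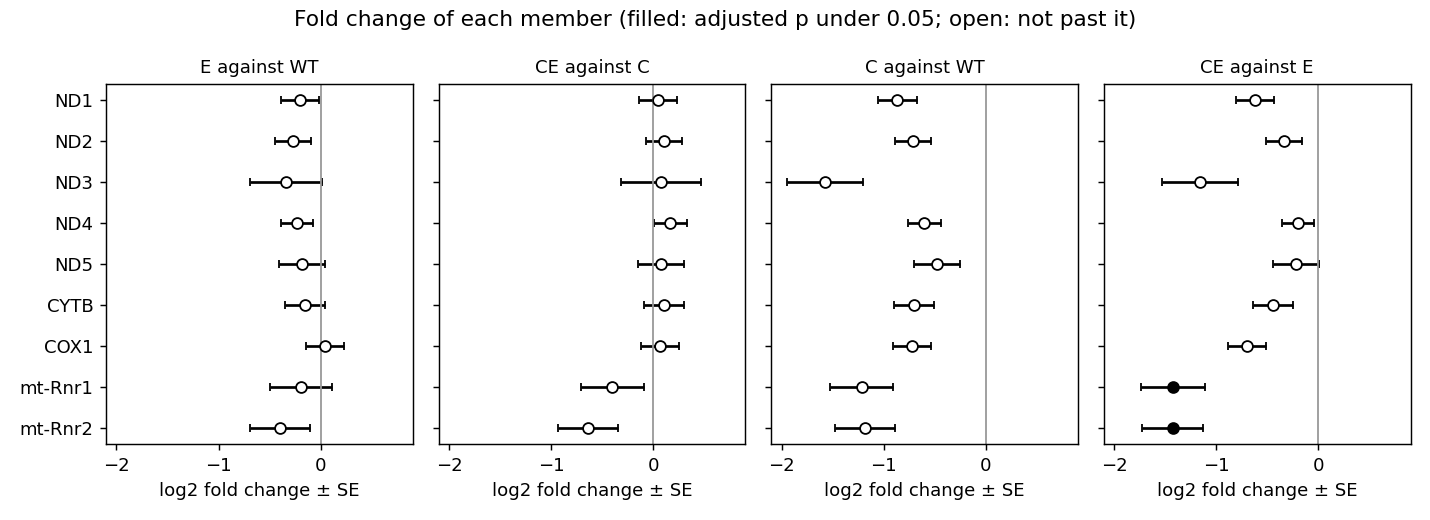
Log2 fold change (± SE) of each of the 9 members in the 4 comparisons, with filled points past an adjusted p of 0.05. All points lie left of 0 in C against WT and CE against E, and only mt-Rnr1 and mt-Rnr2 in CE against E are filled.

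E against WT compared transgenic with wild-type mice, both with their caspases. No member passed with edgeR (adjusted p = 0.774 to 0.976), where 0.0829% of all genes did. None had an unadjusted p under 0.05 (6.58% of all genes), and DESeq2 and limma voom called none. The median log2 was -0.20, from -0.40 for mt-Rnr2 (SE 0.29) to 0.04 for COX1 (SE 0.19), and no member's groups were apart (8.02% of all genes). Without WT2 the median was 0.05, without WT3 -0.20 and without WT4 -0.47, so that its sign rested on WT2.

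On the caspase-null background, CE against C, no member passed with edgeR (adjusted p = 0.942 to 0.9995), where 0.207% of all genes did, nor with DESeq2 or limma voom. The 7 mRNAs were at log2 0.05 to 0.17, and ND2, COX1 and ND4 had every CE library above every C library (7.03% of all genes did). ND4 had the highest of these values, with means of 384.8 ± 11.3 CPM for C and 431.9 ± 22.5 CPM for CE (SD, n = 3). Its log2 was 0.17 (SE 0.16, edgeR adjusted p = 0.9995). The rRNAs lay on the other side, with every CE library below every C library (7.86% of all genes). mt-Rnr2 was at log2 -0.64 (SE 0.29, adjusted p = 0.942), the only member with an unadjusted p under 0.05 (0.0441, as for 5.14% of all genes), and mt-Rnr1 was at -0.40 (SE 0.31, adjusted p = 0.9995). Of the settings tried, 2 called mt-Rnr2: leaving every low gene in (adjusted p = 0.0106) and fitting C and CE by themselves (adjusted p = 0.0122).

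The difference between both transgene effects passed for no member with edgeR (adjusted p = 0.9997 for all 9, none at an unadjusted p under 0.05), nor with DESeq2 or limma voom, and for none of all genes tested (0% called, 2.11% at an unadjusted p under 0.05). The mRNAs were at log2 0.03 to 0.42 and the rRNAs at -0.21 and -0.24, with SE of 0.43 and 0.41 for mt-Rnr1 and mt-Rnr2.

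Counts of rRNA relative to mRNA gave a measure free of library size, but not of how RNA was selected or depleted, which is not given. As a percent of the 7 mRNA members, the 2 rRNAs stood at 11.9, 6.58 and 7.09% in WT2, WT3 and WT4 and at 7.66, 7.72 and 7.51% in E1, E2 and E3. They stood at 7.34, 6.57 and 5.48% in C1, C2 and C3 and at 4.34, 3.67 and 4.68% in CE1, CE2 and CE3. CE lay below all other libraries, and WT4 stood between WT3 and C1. The 2 rRNAs kept close to each other, with mt-Rnr2 at 134 to 144% of mt-Rnr1 in WT, 136 to 148% in C, 112 to 132% in E and 111 to 129% in CE. Both transgenic groups lay below both others in that ratio.

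**Figure D4:**
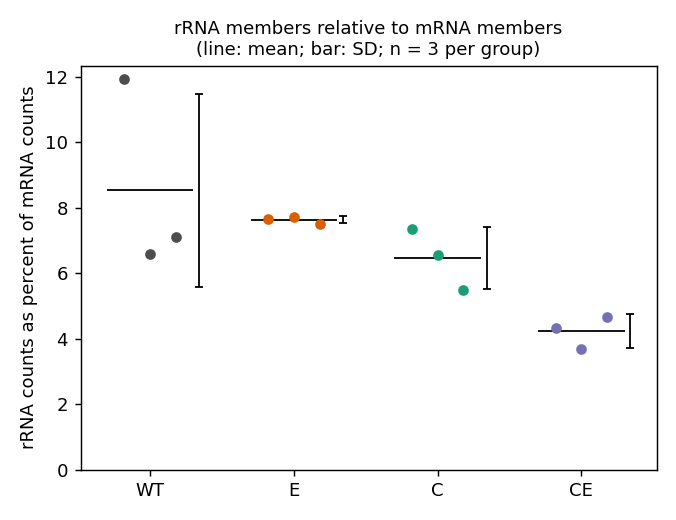
Counts of mt-Rnr1 and mt-Rnr2 together as a percent of the counts of the 7 mRNA members, by group, with 1 point per library, the mean as a line and the SD as a bar (n = 3). The 3 CE libraries, at 3.67 to 4.68%, lie under all others, and WT2 stands highest at 11.9%.

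Shares within the mRNA pool, also free of library size, showed its makeup. COX1 held 51.3 to 52.6% of the counts of the 7 mRNAs in WT, 50.9 to 51.5% in C, 48.9 to 52.1% in CE and 51.2 to 58.8% in E. CYTB held 16.7 to 18.01% in WT, 17.3 to 17.6% in C, 16.8 to 18.6% in CE and 14.9 to 17.9% in E, so that all groups overlapped. ND1 held 13.6 to 13.8% in WT, above the 11.6 to 12.9% of the 9 other libraries. WT4, at 13.8%, was with WT in this share although its level was near those of C. ND5 held 5.801 to 7.36% in WT and 4.99 to 7.46% in E, and 7.37 to 8.76% in C and 7.43 to 8.27% in CE, with E reaching into the range of C and CE.

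ND6, the one mRNA encoded on the other strand, is no member and had 4128 to 9123 counts. Its wild-type libraries had 178.8 to 333.3 CPM and those of E 184.3 to 214.1, and C and CE together 172.1 to 196.5. Neither test of the caspase loss called ND6 (log2 -0.58, adjusted p = 0.072, without the transgene and log2 -0.13, adjusted p = 0.674, with it). ND5 and ND6 overlap by a few bases on opposite strands, and whether counting used strand is not given in the sources used here.

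Members moved together from mouse to mouse. Less the group means, Pearson's r of log2 CPM over the 12 libraries was 0.763 to 0.986 between pairs of mRNAs other than ND3 (21 pairs, ND6 included) and 0.983 between the 2 rRNAs. It was 0.615 to 0.864 between such an mRNA and an rRNA (0.562 and 0.637 for ND3), and 0.208 to 0.665 between ND3 and another mRNA. These values share libraries and depth, and the spread within groups was widest in WT for every tested member but ND3 (CV 29.4 to 66.1% in WT). Among 11041 genes with a symbol and an average log2 CPM of at least 1, those most like the mean of the mRNA members over 12 libraries were Ttc19 (r = 0.976), Tardbp, Gtf2a1, Pum3 and Nucks1 (r = 0.961 to 0.967). For the rRNA mean they were Jtb (r = 0.981), Gtf2a2, Gtf2e2, Dcun1d5 and Med6 (r = 0.974 to 0.979). In all 155 of the 11041 genes exceeded r = 0.9 for the mRNAs and 390 for the rRNAs, so that such likeness was not particular to the genes named.

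Nuclear genes for the same complexes were examined from lists chosen with earlier results known. Of all genes tested, 51.8% stood lower in C against WT and 49.6% in CE against E, and 0.297% and 1.11% passed as lower. Of 36 complex I subunits, 36 stood below WT in C (median log2 -0.43) and 35 below E in CE (median log2 -0.25). Ndufs4, which helps assemble the matrix arm, fell in both (1.45-fold, adjusted p = 0.0461, and 1.42-fold, adjusted p = 0.0403), and was the only one past the threshold in C against WT. Ndufb3 fell in CE against E (1.49-fold, adjusted p = 0.0497). Of 8 tested complex III subunits none passed in C against WT, where Uqcrb was at log2 -0.55 (adjusted p = 0.0513), and 1 in CE against E, where Uqcrb fell 1.62-fold (adjusted p = 0.0398). Of 10 complex IV subunits all stood lower in both, and Cox7b passed in CE against E (1.48-fold, adjusted p = 0.0405). Cox7c was at log2 -0.73 in C against WT (adjusted p = 0.0525). No subunit of these lists passed in E against WT or CE against C. Most stood lower there too. In E against WT 35 of 36, 8 of 8 and 10 of 10 subunits of complexes I, III and IV did (median log2 -0.20, -0.21 and -0.23). In CE against C 28, 7 and 9 of them did (median log2 -0.02, -0.06 and -0.05). The lowering was thus not particular to the caspase comparisons, though its medians were larger there. None of the 4 calls in CE against E held when any 1 of the 6 libraries was left out (edgeR adjusted p = 0.0629 to 0.217) or with the covariate for Y-linked transcripts (adjusted p = 0.124 to 0.195). In C against WT, Ndufs4 held in 2 of 6 such fits (adjusted p = 0.0055 without WT4 to 0.25 without C3), and not with the covariate (adjusted p = 0.493). Over all genes, the covariate left 1 call in C against WT and 2 in CE against E. Leaving out single libraries left 2 to 32 calls in CE against E.

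Genes that handle mitochondrial RNA came next, beside the same shares of all genes (51.8% and 49.6% lower, 0.297% and 1.11% past the threshold as lower). Of 22 genes for mitochondrial transcription and DNA upkeep, 17 stood lower in C against WT (median log2 -0.11) and 15 in CE against E (median log2 -0.10). Ssbp1, the mitochondrial single-stranded DNA binding protein, fell 1.48-fold when CE was set against E (adjusted p = 0.0422), and was the only one of them to pass. It was at log2 -0.50 in C against WT (adjusted p = 0.0579). Of 25 genes for RNA processing, polyadenylation and decay none passed. Trit1, a transfer RNA modifier, was at log2 -0.42 in C against WT (adjusted p = 0.0579), and Rexo2, an oligoribonuclease, at -0.44 in CE against E (adjusted p = 0.0667). Slirp, which with Lrpprc stabilises mitochondrial mRNAs, was at log2 -0.59 (adjusted p = 0.0645) in C against WT and -0.63 (adjusted p = 0.0556) in CE against E. Of 19 genes for rRNA modification and ribosome assembly none passed, with a median log2 of -0.19 in C against WT and -0.03 in CE against E. Ngrn, needed for the stability of the 16S rRNA, was at log2 -0.43 (adjusted p = 0.0585) and Malsu1 at -0.35 (adjusted p = 0.074) in C against WT.

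Of 30 tested translation and assembly factors, 25 stood lower in C against WT (median log2 -0.15) and 27 in CE against E (median log2 -0.16), where the complex I assembly factor Ndufaf2 fell 1.51-fold (adjusted p = 0.0403). Shares of all genes in these comparisons were 51.8% and 49.6% lower, with 0.297% and 1.11% past the threshold as lower. Of 18 genes that mark mitochondrial content, such as Tomm20 and Vdac2, 17 stood lower in each (median log2 -0.17 and -0.20), and none passed. In E against WT 15 of the 18 stood lower too, and in CE against C 17 did (median log2 -0.08 in both). Slc25a4, an adenine nucleotide carrier, was at log2 -0.35 in CE against E (adjusted p = 0.0578). Of 15 nuclear regulators 12 stood higher in each (median log2 0.14 and 0.19), and none passed. Foxo3 was at log2 0.62 (adjusted p = 0.0577) in C against WT and 0.52 (adjusted p = 0.081) in CE against E. Myc, the other gene with the smallest p, went the other way, at log2 -0.38 (adjusted p = 0.0579) and -0.24 (adjusted p = 0.156). Of 10 tested nuclear and structural noncoding RNAs, Meg3 alone passed. It was 5.13-fold higher in C than in WT (adjusted p = 0.0263) and 3.15-fold higher in CE than in E (adjusted p = 0.0405). As higher, 0.359% and 0.477% of all genes passed there. In E against WT and CE against C no gene of these lists passed. Without single libraries the calls of Ssbp1, Ndufaf2 and Meg3 in CE against E all ended (adjusted p = 0.067 to 0.201), and Meg3 held in 3 of 6 such fits in C against WT. With the covariate for Y-linked transcripts all 4 calls ended (adjusted p = 0.124 to 0.493). Over all genes that fit left 1 call in C against WT and 2 in CE against E.

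Some other genes moved against the mitochondrial level across libraries. The summed level of 17 immediate early genes (Fos, Jun, Egr1, Klf4 and others, a list taken up after earlier results) was 8069, 9135 and 20502 CPM in WT2, WT3 and WT4 and 8115 to 10839 in E. It was 20355 to 21779.8 in C and 18631 to 22136 in CE. WT4 was thus at the level of the caspase-null groups both in these genes and in the summed mRNA members, which were at 14750 and 12057 CPM in WT2 and WT3, 7172 in WT4, 10290.0 to 11729 in E, 6769 to 7003 in C and 6992 to 7567 in CE. In CE against E, 8 of the 17 passed as higher (0.477% of all genes), and in C against WT 1, Klf4 (0.359% of all genes). Klf4 passed in both, in 3 of 6 fits without 1 library in CE against E and in 2 of 6 in C against WT. Egr1 and Klf6, also called in CE against E, held in 1 and 0 of 6 such fits. With the covariate for Y-linked transcripts Klf4 passed in neither (adjusted p = 0.124 and 0.568), where 2 and 1 of all genes were called. The part of this response in the mitochondrial levels was not tested.

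**Figure D5:**
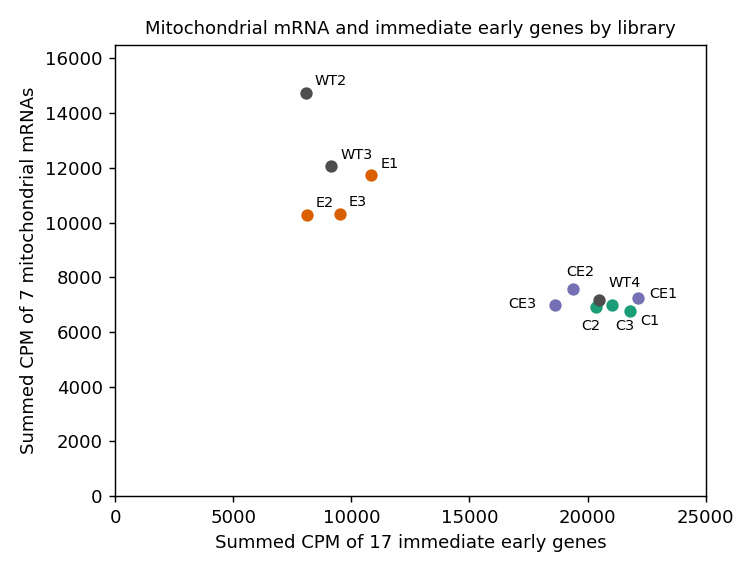
Summed CPM of the 7 mRNA members against the summed CPM of 17 immediate early genes, with 1 point per library coloured by group (grey WT, orange E, green C, violet CE). WT4 lies among the C and CE libraries, and WT2 and WT3 lie with E.

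Markers of other blood cells were summed in the same way. For 8 basophil, eosinophil and mast cell markers the sum was 169.7 to 263.4 CPM in WT and 93.96 to 289.3 in E. It was 96.4 to 141.1 CPM in C and 72.6 to 76.3 in CE, and none of the 8 passed. The 10 macrophage and monocyte markers summed to 338.0 to 551.3 CPM over all groups. Vcam1 was the only one past the threshold, lower in CE against E (adjusted p = 0.0403), and held in 1 of 6 fits without 1 library. The 11 erythroid markers summed to 360.6 to 798.5 CPM over all groups, and none passed. In the neutrophil list (7699.97 to 12360.2 CPM over all libraries), the T and NK list (167.2 to 300.004) and the megakaryocyte list (533.8 to 720.4) no marker passed. B lineage markers were lower in CE than in C (72.7 to 82.1 against 164.7 to 242.1 CPM, 7 of 9 past the threshold, with 0.145% of all genes called lower) and in E than in WT (76.0 to 90.0 against 100.3 to 190.7 CPM, 2 of 9, with 0.0345% of all genes called lower). In fits without 1 library, Cd79a and Igll1 held in 4 of 6 and Vpreb3 in 3 of 6 in CE against C. Vpreb1 and Igll1 held in 2 of 6 in E against WT. The part of these blood cell markers in the mitochondrial levels was not tested. The 14 stem cell markers summed to 1295 to 1350 CPM in CE, the group with the lowest rRNA levels, above 983.5 to 1211 in the 9 other libraries. Kit and Gata2 had the highest levels in this sum. Procr alone of the 14 passed, higher in CE than in E (adjusted p = 0.0462), and in none of 6 fits without 1 library. The part of these markers in the rRNA levels was not tested.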

How the data were processed

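The deposited values are raw counts, 1 row per NCBI Gene number and 1 column for each of 12 libraries, as whole numbers of unequal totals. STAR 2.5.3 and mm10 are named in the submitters' processing notes. Neither these notes nor the labels give the counter, annotation, strandedness or treatment of multi-mapped reads. RefSeq (GRCm38.p6) gave symbols for 25275 of the gene numbers, and 1904 stayed as numbers. Groups came from sample titles.

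All 12 libraries were fitted with edgeR 4.0.16 (R 4.3.3): filterByExpr by group, TMM factors, group means without an intercept, two-sided quasi-likelihood F tests and Benjamini-Hochberg adjustment over 14473 genes. The common biological coefficient of variation was 0.139. Fold changes are log2, and correlations use log2 CPM with a prior count of 2. Replicates carry the error, so no counting intervals were used. The pipeline was tested on simulated data.

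Members, lists and tests were chosen with earlier results of these data known. Named are all members, label genes, and of each list up to 3 genes past the threshold or of the 2 with the smallest p in C against WT and CE against E. Likeness names the 5 genes with the highest r. Lists are described by counts and medians, with no test. Nuclear copies were found with blastn among GENCODE vM21 transcripts, over alignments of at least 100 bases. Only matches in the orientation of the gene were searched, and hits on a single autosome were left out, so that the search was not complete. Alternatives used RLE factors, total counts, other filters, DESeq2 1.42.0, limma 3.58.1 voom, subsets, a replicate block, a covariate for Y-linked transcripts (sum over 1 CPM) and the removal of libraries.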

Additional observations from a re-analysis of the deposited data

How the results depend on the processing

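Beside leaving out each of its libraries, C against WT was recomputed under 12 settings, CE against E under 10 and each of the others under 11. C1 and C3 were left out together because they had the most genes detected. Of 910 fold changes of the members and ND6 so recomputed, 883 kept their sign. In C against WT 0 members passed as reported, with 95 of all genes called. The number was 1 with RLE factors (160 of all genes) and 1 with the mitochondrial genes left out of the library sizes (101). It was 9 with no filter on low counts (1554) and 2 with a filter of 1 CPM in 6 libraries (219). DESeq2 called 8 (1255) and limma voom 9 (1773), and single libraries left out gave 0 to 9 (7 to 2258). Without WT2 and WT4 (an alternative chosen after seeing the data) the median log2 was -0.83. In CE against E, with 2 as reported (229 of all genes), the number was 6, 4 and 5 with no filter, DESeq2 and limma voom (1172, 1254 and 1392). It was 5 with only the groups compared (843), 0 with the Y-linked covariate (2) and 0 with any single library left out (2 to 32). In CE against C the number was 1 with no filter (203 of all genes) and 1 with only the groups compared (110). The cause was not tested.

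With the replicate number as a replicate block, 9 members passed in C against WT (2045 of all 14473 genes) and 6 in CE against E (1475 of all genes). The replicate numbers do not pair the mice in the labels. Over same-numbered libraries of different groups the correlation of deviations was -0.239 to 0.157 (15 pairs, 4 over 0.1), and 2 of 12 libraries correlated best with their own number.

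Signs turned in comparisons with no member called as reported. In E against WT, COX1 was at log2 -0.046 with limma voom, -0.23 with the replicate block and -0.047 without WT2 and WT4, and at -0.19 to 0.28 with single libraries left out. mt-Rnr1 was at 0.00062 with limma voom and 0.21 without WT2 and WT4, and at -0.51 to 0.49 with single libraries left out. For mt-Rnr2, ND1, ND5 and CYTB those ranges were -0.71 to 0.24, -0.43 to 0.040, -0.47 to 0.047 and -0.40 to 0.14. In CE against C, ND3 was at -0.040 with limma voom and -0.11 with the Y-linked covariate, and ND1 at -0.015 without C1 and C3. With single libraries left out ND3 was at -0.11 to 0.19 and ND1 at -0.011 to 0.087. In the difference, COX1 was at -0.039 with total counts and -0.00062 without C1 and C3, and mt-Rnr1 and mt-Rnr2 at 0.15 and 0.099 with the replicate block. With single libraries left out COX1, CYTB, mt-Rnr1 and mt-Rnr2 were at -0.22 to 0.25, -0.036 to 0.50, -0.90 to 0.10 and -0.89 to 0.061. With 3 mice a group, adjusted p-values near the threshold are not settled by these libraries, and ND3 and COX3 are limited by their counts.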
